A study of Mus musculus with 5 samples.

Results

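A set of 7 homeobox genes was followed in the forelimb muscle of Noggin-deficient and of wild type mouse embryos: Msx1, Msx2, Hoxa13 and Hoxd13, which belong to the distal limb, and Hoxc6, Hoxc8 and Hoxc9, which belong to the trunk and the proximal limb. They were taken by gene symbol, and all 7 were found among the 4743 genes of the deposited tables. They were picked for their values in this same comparison, so their values are given as a description, with no test. The groups were 3 Noggin-deficient samples and 2 wild type samples, all C57BL/6 embryos at stage E15.5, and the labels give no treatment. The labels name neither the Noggin allele nor whether a sample was a single embryo or a pool, and give no sex, litter or batch. The p-values below therefore reflect no more than sample-to-sample spread, possibly technical. RNA was sequenced from whole dissected tissue. In such bulk samples fewer cells of a type and less RNA per cell cannot be told apart.

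Noggin acts outside the cell, where it captures bone morphogenetic proteins (BMPs) before they reach a receptor. Msx1 and Msx2 encode homeodomain repressors that are induced by BMPs in limb mesenchyme, in the distal tip and between the digits. Hox genes lie in clusters in which the order of the genes follows the order of their expression along the body and limb axes. In the limb, the genes at the Hox13 end mark the hand plate, whereas Hoxc6, Hoxc8 and Hoxc9 are expressed in the trunk at and behind the forelimb and in proximal limb tissue.

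The promoters of the 4 distal genes are shown because these genes were all higher in Noggin-deficient tissue, as the 250 bases before the RefSeq start (build GRCm38.p6). Sequences are from RefSeq, 4 of the 7 genes matched, and Hoxc6, Hoxc8 and Hoxc9 had no entry. Capitals mark every match, on either strand, to GGCGCC (a palindrome that SMAD proteins of the BMP pathway bind), GTCT (a shorter SMAD site), CCAAT (a common promoter element) and TAATTA (a homeodomain core site).
Msx1 promoter, chr5:37824586-37824835, minus strand: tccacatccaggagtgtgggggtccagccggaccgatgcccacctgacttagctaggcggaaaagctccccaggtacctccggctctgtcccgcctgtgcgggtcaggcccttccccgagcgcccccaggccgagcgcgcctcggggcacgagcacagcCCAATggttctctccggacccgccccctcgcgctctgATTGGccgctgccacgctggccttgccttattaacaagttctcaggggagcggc
Msx2 promoter, chr13:53472781-53473030, minus strand: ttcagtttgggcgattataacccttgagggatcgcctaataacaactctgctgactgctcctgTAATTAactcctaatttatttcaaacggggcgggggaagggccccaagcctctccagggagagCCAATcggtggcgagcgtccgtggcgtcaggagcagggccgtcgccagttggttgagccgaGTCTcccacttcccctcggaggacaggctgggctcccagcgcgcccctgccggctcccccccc
Hoxa13 promoter, chr6:52260881-52261130, minus strand: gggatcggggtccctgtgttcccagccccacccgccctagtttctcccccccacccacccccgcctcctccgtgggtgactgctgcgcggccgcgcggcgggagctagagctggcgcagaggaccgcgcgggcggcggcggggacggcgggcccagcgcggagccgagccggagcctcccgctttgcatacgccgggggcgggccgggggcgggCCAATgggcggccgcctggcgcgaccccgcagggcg
Hoxd13 promoter, chr2:74667975-74668224, plus strand: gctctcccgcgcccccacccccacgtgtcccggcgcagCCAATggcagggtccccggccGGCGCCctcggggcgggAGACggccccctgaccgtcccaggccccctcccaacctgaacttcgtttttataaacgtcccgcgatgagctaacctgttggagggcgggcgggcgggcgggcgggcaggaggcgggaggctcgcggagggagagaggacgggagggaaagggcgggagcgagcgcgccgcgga
CCAAT occurred in each of the 4 promoters, at 2 places in Msx1 and at 1 in each of Msx2, Hoxa13 and Hoxd13, and in 33.8% of all 32851 RefSeq promoter windows of the same length. GGCGCC occurred only in Hoxd13 among these 4, and in 9.6% of all windows. TAATTA occurred only in Msx2 among these 4, and in 4.8% of all windows. GTCT occurred in Msx2 and Hoxd13, and in 82.9% of all windows. The GC content was 68.0% for Msx1, 61.6% for Msx2, 80.0% for Hoxa13 and 74.4% for Hoxd13, against a median of 52.4% over all windows.

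The genes also differ in the part of the homeobox that encodes the recognition helix, which lies in the major groove of DNA. The 51 bases for homeodomain residues 42 to 58 are shown for Msx2 and the 5 Hox genes from the GENCODE M21 coding sequences (GRCm38), so that the classes can be read side by side. Each lies in the last exon of its transcript. Capitals mark the positions at which these 6 genes are not all alike.
Msx2, chr13:53468376-53468426, minus strand: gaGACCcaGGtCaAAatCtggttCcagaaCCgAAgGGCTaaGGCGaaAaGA
Hoxa13, chr6:52258934-52258984, minus strand: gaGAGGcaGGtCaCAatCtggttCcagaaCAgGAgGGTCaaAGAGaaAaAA
Hoxd13, chr2:74670053-74670103, plus strand: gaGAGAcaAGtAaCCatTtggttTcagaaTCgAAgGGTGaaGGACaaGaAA
Hoxc6, chr15:103010877-103010927, plus strand: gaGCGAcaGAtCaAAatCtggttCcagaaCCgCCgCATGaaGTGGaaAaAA
Hoxc8, chr15:102992694-102992744, plus strand: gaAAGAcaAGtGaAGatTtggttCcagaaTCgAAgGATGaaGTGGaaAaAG
Hoxc9, chr15:102984053-102984103, plus strand: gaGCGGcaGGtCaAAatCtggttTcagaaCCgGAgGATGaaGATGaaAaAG
These 6 genes share 25 of the 51 bases. Over the whole homeobox of 180 bases, Hoxa13 and Hoxd13 were 73.9% identical, and the 3 Hoxc genes 64.4% to 67.8% among themselves. Between Msx2 and the 5 Hox genes the identity was 52.8% to 60.6%.

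The unit of the deposited signal is not named in the sources used here, so which of 2 genes had the higher level is not read from it. The number of reads behind a value is unknown, and none of the 7 genes was listed at 0 in any library. Summed over the listed genes, Noggin-deficient libraries held 92210 to 93695 units and wild type libraries 100792 to 102783. The listed genes were not a neutral sample. Of 4686 genes with values in both groups, 2 had group means within 0.2 log2 units of each other. Of 3913 genes tested across the table with limma, 98.0% were called at an adjusted p under 0.05, with 37.9% higher and 60.1% lower in Noggin-deficient tissue. Of the calls, 38.7% were higher on the values as deposited, 54.5% with median-of-ratios scaling, 48.4% with upper-quartile scaling and 48.8% with a trend on transcript length taken out. A call for a listed gene is therefore close to given by its presence in the table. Log2 changes are Noggin-deficient minus wild type on log2(value + 0.25), which understates the change of low genes. Nog, which encodes Noggin, stood at 0.49, 0.42 and 0.42 in Noggin-deficient tissue, against 2.0 and 1.99 in wild type tissue.

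Msx1, the first of the BMP-induced pair, stood at 1.96, 2.06 and 2.44 in Noggin-deficient tissue, against 0.43 and 0.39 in wild type tissue. All Noggin-deficient libraries lay well above both wild type libraries. The mean was 2.15 ± 0.253 (SD, n = 3) in Noggin-deficient and 0.41 ± 0.0283 (SD, n = 2) in wild type tissue, a ratio of 5.25 and a log2 change of 1.86 (SE 0.106). Msx2, its paralog, stood at 2.43, 2.53 and 2.22 in Noggin-deficient tissue, against 0.93 and 0.77 in wild type tissue. Its groups were again apart, with means of 2.39 ± 0.158 (SD, n = 3) in Noggin-deficient and 0.85 ± 0.113 (SD, n = 2) in wild type tissue. The ratio was 2.82 and the log2 change 1.27 (SE 0.094). The Noggin-deficient library with the highest Msx1 value had the lowest Msx2 value. Msx1os, a noncoding gene annotated within the span of Msx1, was at 0.33, 0.28 and 0.34 in Noggin-deficient tissue and at 0.02 and 0.04 in wild type tissue. The sources used here do not say whether the authors' counting used strand, so reads of Msx1 and of Msx1os cannot be told apart.

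Hoxa13, the last gene of the Hoxa cluster, stood at 1.45, 1.57 and 1.36 in Noggin-deficient tissue, against 0.28 and 0.24 in wild type tissue. The libraries of each group were close to each other and far from those of the other. The mean was 1.46 ± 0.105 (SD, n = 3) in Noggin-deficient and 0.26 ± 0.0283 (SD, n = 2) in wild type tissue, a ratio of 5.62 and a log2 change of 1.74 (SE 0.099). Hoxd13, the corresponding gene of the Hoxd cluster, stood at 2.30, 2.46 and 2.73 in Noggin-deficient tissue, against 0.25 and 0.67 in wild type tissue. The wild type samples disagreed here, with a coefficient of variation of 64.6%, where the median over 863 listed genes with a wild type mean from 0.2 to 1 was 10.5%. The mean was 2.5 ± 0.217 (SD, n = 3) in Noggin-deficient and 0.46 ± 0.297 (SD, n = 2) in wild type tissue, a ratio of 5.43. The log2 change was 2.01 (SE 0.229). It was 1.57 without wild type replicate 1 and 2.45 without wild type replicate 2, and positive in both cases. Among the 3913 tested genes ordered from the largest rise down, Hoxd13 ranked 49, Msx1 54, Hoxa13 63 and Msx2 104.

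The Hoxc genes differed the other way and by less. Hoxc6 stood at 5.82, 6.06 and 5.41 in Noggin-deficient tissue, against 8.17 and 7.14 in wild type tissue. The mean was 5.76 ± 0.329 (SD, n = 3) in Noggin-deficient and 7.65 ± 0.728 (SD, n = 2) in wild type tissue, a log2 change of -0.39 (SE 0.070). The groups were apart, although the wild type samples differed from each other by more than the Noggin-deficient ones. Hoxc8 stood at 3.94, 3.42 and 3.17 in Noggin-deficient tissue, against 4.68 and 4.97 in wild type tissue. The means were 3.51 ± 0.393 (SD, n = 3) in Noggin-deficient and 4.82 ± 0.205 (SD, n = 2) in wild type tissue, a log2 change of -0.44 (SE 0.087). Hoxc9 had values of 0.34, 0.51 and 0.44 in Noggin-deficient tissue, against 0.67 in both wild type samples. Its Noggin-deficient mean was 0.43 ± 0.0854 (SD, n = 3), a log2 change of -0.44 (SE 0.130). In Hoxc8 and Hoxc9, too, the highest Noggin-deficient library stayed below the lowest wild type library. The ratios of the means were 0.753 for Hoxc6, 0.727 for Hoxc8 and 0.642 for Hoxc9. Among the 3913 tested genes ordered from the largest fall, Hoxc9 ranked 1151, Hoxc8 1179 and Hoxc6 1363. Falls of this size were common, as the median over all tested genes was -0.28 and 60.1% were called lower. The annotated span of Hoxc5 in GENCODE M21 runs over Hoxc6, Hoxc8 and Hoxc9 on the same strand, so the authors' counting could have shared or dropped reads between these genes.

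**Figure D1:**
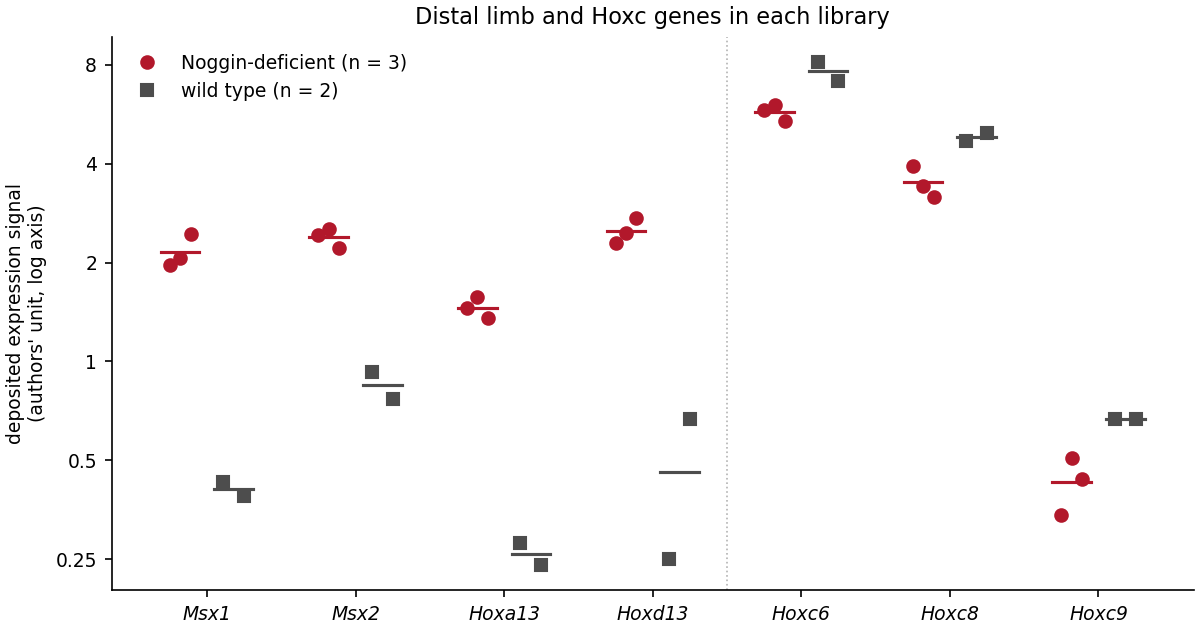
Deposited signal of the 7 genes in each library, on a log axis in the authors' unit. Circles are the 3 Noggin-deficient libraries, squares the 2 wild type libraries and bars the group means. The circles lie above the squares for Msx1, Msx2, Hoxa13 and Hoxd13 and below them for Hoxc6, Hoxc8 and Hoxc9, and the wild type squares of Hoxd13 are the farthest apart, at 0.25 and 0.67.

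All 7 genes had groups that did not overlap, as did 98.2% of the 4743 listed genes. All 7 also passed the minimum of 0.5 in at least 2 libraries. Msx1 and Hoxa13 passed it through the Noggin-deficient libraries alone, since no wild type library reached 0.5. Hoxd13 reached it in 1 wild type library, and Hoxc9 in 1 Noggin-deficient and both wild type libraries. Within the Noggin-deficient group the coefficient of variation was 6.61% for Msx2, 7.22% for Hoxa13, 8.70% for Hoxd13 and 11.8% for Msx1, against a median of 5.88% over 1580 listed genes with a mean from 1 to 5. Hoxc8, in the same range of means, was at 11.2%. Hoxc6 was at 5.70%, against a median of 3.37% for means from 5 to 10, and Hoxc9 at 19.9%, against 13.2% for means from 0.2 to 1.

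The distal genes were set against the Hoxc genes within each library, which does not depend on how the libraries were scaled to each other. The 4 distal values summed to 8.14, 8.62 and 8.75 in Noggin-deficient tissue, against 1.89 and 2.07 in wild type tissue. The 3 Hoxc values summed to 10.1, 9.99 and 9.02 in Noggin-deficient tissue, against 13.5 and 12.8 in wild type tissue. The ratio of the distal to the Hoxc sum was 0.806, 0.863 and 0.970 in Noggin-deficient tissue and 0.140 and 0.162 in wild type tissue. Its size carries no meaning on its own, since the unit may depend on gene length, but every Noggin-deficient library had a higher ratio than every wild type library. Hoxd13 relative to Hoxc6 was at 0.395, 0.406 and 0.505 in Noggin-deficient tissue, against 0.0306 and 0.0938 in wild type tissue. Msx1 relative to Hoxc6 was at 0.337, 0.340 and 0.451 in Noggin-deficient tissue, against 0.0526 and 0.0546 in wild type tissue. The median log2 change of the distal genes exceeded that of the Hoxc genes by 2.24 as a difference of 2 medians. This gap follows from the choice of the genes.

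**Figure D2:**
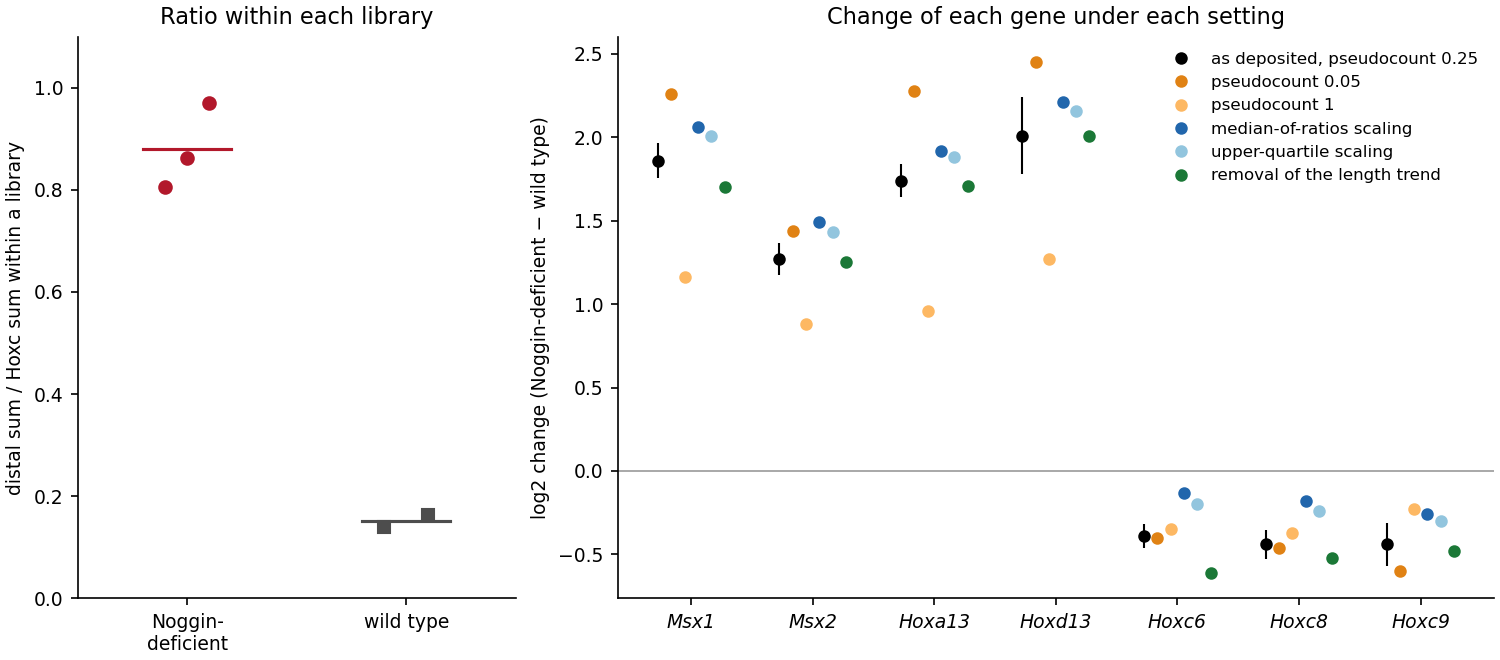
Left, the sum of the 4 distal values over the sum of the 3 Hoxc values in each library, with bars at the group means; the Noggin-deficient libraries lie between 0.806 and 0.970 and the wild type libraries at 0.140 and 0.162. Right, the log2 change of each gene under each setting, with the SE drawn for the values as deposited; no gene changes sign, Hoxc6 ranging from -0.61 to -0.13 and Hoxd13 from 1.27 to 2.45.

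The size of the Hoxc differences depended on the scaling. Under median-of-ratios scaling, which shifted all genes by 0.26 at the median, Hoxc6 was at -0.13, Hoxc8 at -0.18 and Hoxc9 at -0.26. Under upper-quartile scaling they were at -0.20, -0.24 and -0.30, and with a trend on transcript length taken out at -0.61, -0.52 and -0.48. The distal genes were at 2.06 for Msx1, 1.49 for Msx2, 1.92 for Hoxa13 and 2.21 for Hoxd13 under median-of-ratios scaling. No sign turned under any of these scalings.

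The other Hox genes show where the members stand in their clusters. Of the 39 mouse Hox genes, 26 had values, 5 of them being members. The 18 tested genes of the other 21 comprised 12 that rose, 5 that fell and 1, Hoxb7, that did not pass limma's test (adjusted p = 0.1). With median-of-ratios scaling 12 rose and 1 fell, and with upper-quartile scaling 12 rose and 3 fell. Their median log2 change was 0.50, against -0.28 over all tested genes, of which 37.9% were called higher and 60.1% lower. Hoxb1, Hoxc10 and Hoxc11 were too low to be tested. Another 13 Hox genes, among them Hoxa9, Hoxa10, Hoxc4 and Hoxd9, were not analysed here.

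Along the Hoxc cluster the direction turned on both sides of the members. Hoxc13, at the distal end and also active in hair follicles and nails, stood at 1.17, 1.06 and 0.86 in Noggin-deficient tissue, against 0.32 and 0.36 in wild type tissue, and rose by 1.11 on the log2 scale (limma adjusted p = 9.6e-05). Hoxc12 stood at 0.53, 0.68 and 0.27 in Noggin-deficient tissue, against 0.23 and 0.02 in wild type tissue. It rose by 1.01 (limma adjusted p = 0.013), but did not pass with the length trend taken out (0.68, limma adjusted p = 0.063). Without wild type replicate 2 its log2 change was 0.59. Neither Hoxc13 nor Hoxc12 reached 0.5 in a wild type library, so both entered the test through the Noggin-deficient libraries alone. Hoxc11 and Hoxc10, untested, were also higher in each Noggin-deficient library, Hoxc11 at 0.43, 0.23 and 0.14 in Noggin-deficient tissue, against 0.10 and 0.06 in wild type tissue. Hoxc10 was at 0.28, 0.11 and 0.24 in Noggin-deficient tissue, against 0.08 and 0.06 in wild type tissue. Groups that did not overlap were the rule, in 98.2% of the listed genes. On the other side of Hoxc6, Hoxc5 rose by 0.36 (limma adjusted p = 0.0045), with values of 4.46, 4.24 and 3.63 in Noggin-deficient tissue, against 3.2 and 3.09 in wild type tissue. Since the annotated span of Hoxc5 runs over the 3 members, its value may not be separate from theirs. The decrease was thus not common to the Hoxc genes: of the 8 with values, the 3 members were lower and the other 5 higher.

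In the Hoxd cluster the genes beside Hoxd13 rose. Hoxd10 rose by 0.71, Hoxd11 by 0.82 and Hoxd12 by 1.45 on the log2 scale (limma adjusted p = 5.2e-05, 4e-05 and 1e-05). The order of Hoxd10 and Hoxd11 turned with a pseudocount of 1 (0.57 and 0.55), and no trend along the cluster was tested. Hoxd12, a neighbour of Hoxd13 that is likewise active in the hand plate, stood at 1.22, 1.47 and 1.25 in Noggin-deficient tissue, against 0.31 and 0.33 in wild type tissue. In the Hoxa cluster, Hoxa11, the gene of the forearm segment, rose by 0.86 (limma adjusted p = 1.8e-05), with values of 4.58, 4.25 and 4.41 in Noggin-deficient tissue, against 2.47 and 2.16 in wild type tissue. Hoxa11os, a noncoding gene that overlaps Hoxa11 on the opposite strand and was named after its values were seen, was at 0.80, 0.87 and 0.86 in Noggin-deficient tissue and 0.13 and 0.07 in wild type tissue. Reads of Hoxa11 and Hoxa11os cannot be told apart without strand. Hoxa11, Hoxc13 and Hoxd12 were the 3 of the 18 tested genes that also passed limma's treat test against a 1.5-fold change, which 14.5% of all tested genes passed. Hoxc13 and Hoxd12 reached 0.5 in no wild type library, so they entered the test only through the group in which they were higher.

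Grouped by paralog number, in bands drawn after the values were seen and therefore not tested, the Hox genes with values fell into 3 stretches. All 10 genes of groups 10 to 13 were higher in Noggin-deficient tissue, with log2 changes from 0.50 to 2.01 and a median of 0.94. All 9 genes of groups 6 to 9 had a negative log2 change, from -0.83 to -0.26 with a median of -0.40. All 7 genes of groups 1 to 5 were higher, from 0.36 to 0.86 with a median of 0.45. Without the members the bands held 8, 6 and 7 genes and the signs were the same. The signs were also the same in each band under median-of-ratios scaling and with the length trend taken out, for the genes tested there. The bands cover 26 of the 39 Hox genes, and the listed genes held almost no unchanged ones. Of 4686 genes with values in both groups, 2 had group means within 0.2 log2 units of each other. How the remaining Hox genes of each band differed is not known from these values.

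The middle band placed Hoxc6, Hoxc8 and Hoxc9 beside their paralogs of the Hoxa and Hoxb clusters. Hoxb9, the paralog of Hoxc9, stood at 1.81, 2.12 and 1.77 in Noggin-deficient tissue, against 3.47 and 3.5 in wild type tissue, and fell (log2 change -0.80, limma adjusted p = 6.3e-05). Hoxa6, a paralog of Hoxc6, had a log2 change of -0.83 (limma adjusted p = 0.0098), with values of 1.23, 0.54 and 0.92 in Noggin-deficient tissue, against 1.61 and 1.84 in wild type tissue. Hoxb8 was at -0.40, Hoxb6 at -0.33 and Hoxa7 at -0.32 (limma adjusted p = 0.0012, 0.011 and 0.00063). Under median-of-ratios scaling Hoxb9 was at -0.55 and still passed, whereas Hoxa6 (-0.60, limma adjusted p = 0.053), Hoxb8 (-0.16, 0.08), Hoxb6 (-0.09, 0.48) and Hoxa7 (-0.06, 0.34) did not. Hoxa6 also did not pass without wild type replicate 2 (-0.74, limma adjusted p = 0.056), nor Hoxb6 without wild type replicate 1 (-0.31, limma adjusted p = 0.057). In the first band, Hoxa4 rose by 0.86, Hoxa2 by 0.69, Hoxa3 by 0.54, Hoxa5 by 0.45 and Hoxd1 by 0.45, the last not passing with the length trend taken out (0.27, limma adjusted p = 0.064). Hoxb1 was below the minimum value, at 0.16, 0.16 and 0.14 in Noggin-deficient tissue and 0.07 and 0.03 in wild type tissue.

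**Figure D3:**
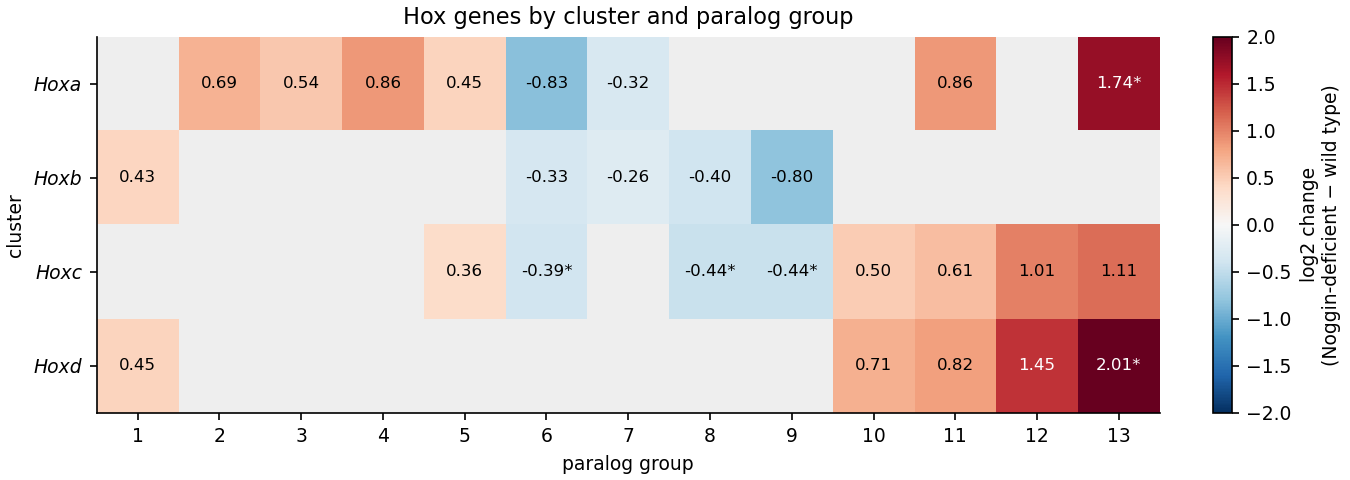
Log2 change (Noggin-deficient minus wild type) of each Hox gene with values, by cluster (rows) and paralog group (columns). Red is higher and blue lower in Noggin-deficient tissue, asterisks mark the members, and grey cells hold no value here. Groups 6 to 9 are blue in each row that has values there, and the deepest red is at Hoxd13, with 2.01.

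Of 20 noncoding and flanking genes of the Hox clusters, 3 were tested. Hotairm1, transcribed from the early end of the Hoxa cluster, rose by 0.75 (limma adjusted p = 0.00061) and Hoxaas2 by 0.43 (limma adjusted p = 0.0031). Lnp, which flanks the Hoxd cluster beyond Hoxd13, had a log2 change of -0.23 that passed (limma adjusted p = 0.0085) but turned to 0.02 under median-of-ratios scaling. Evx1, next to Hoxa13, was not tested, at 0.02, 0.06 and 0.05 in Noggin-deficient tissue and 0 and 0.01 in wild type tissue. Hottip and Hotair were not analysed here.

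Other limb genes, on a distal list that also holds genes of the posterior and ventral limb and of the forearm, mostly rose. Of 36 on the list, 18 had values and 13 were tested. Of these 11 rose and 2 fell, where 37.9% of all tested genes were called higher and 60.1% lower. The median log2 change was 0.65, against -0.28 over all tested genes. With median-of-ratios scaling that of the list was 0.88. Sall1, a zinc finger factor of the hand plate, stood at 0.99, 0.95 and 0.89 in Noggin-deficient tissue, against 0.29 and 0.19 in wild type tissue, and rose by 1.29 (limma adjusted p = 3.5e-05). Sp9, of the apical ectodermal ridge, rose by 1.09 (limma adjusted p = 0.00028), and its relative Sp8 was below the minimum value, as were Sall4, Lhx9, Shh and Gdf5. Of these 5, Sp8, Sall4 and Lhx9 were higher in each Noggin-deficient library than in either wild type library. Shh, the signal of the posterior limb and of hair follicles, and Gdf5, of forming joints, were lower in each. Such a separation of the groups held for 98.2% of the 4743 listed genes. Hand2, a factor of the posterior limb, rose by 1.06, and Aldh1a2, an enzyme of retinoic acid synthesis found between the digits, by 0.64. Grem1, another BMP antagonist, rose by 0.60, En1, of the ventral limb ectoderm, by 0.53 and Tbx2 by 0.41. The 2 that fell were Ptch1, the Hedgehog receptor, at -0.36 and Bmp7, a BMP ligand, at -0.27. Neither passed under median-of-ratios scaling (-0.10, limma adjusted p = 0.065, and -0.01, limma adjusted p = 0.91), and Ptch1 turned to 0.05 with the length trend taken out. Sall1, Sp9 and Hoxd12 reached 0.5 in no wild type library and were tested through the Noggin-deficient libraries alone. With a minimum of 1 in every library 8 genes of the list were tested, of which 6 rose and 2 fell. Hoxd11, Hoxd12 and Hoxa11 are on this list as well as among the Hox genes, and Hand2 and Dlx6 are also on the next.

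Genes that work with MSX proteins or are related to them rose in 7 of 8 tested cases and fell in 1. Their median log2 change was 0.85, or 1.07 under median-of-ratios scaling. Among all tested genes the median was -0.28, with 37.9% called higher and 60.1% lower. Dlx2, a homeobox gene related to Msx, stood at 0.73, 0.87 and 0.92 in Noggin-deficient tissue, against 0.18 and 0.19 in wild type tissue, and rose by 1.32 (limma adjusted p = 2.6e-05). Dlx6, of the same family and active at the limb tip, rose by 0.65. Hand1 rose by 1.63 and Pax9, a partner of MSX1 in tooth and palate, by 1.15. Alx4, of the anterior limb mesenchyme, rose by 0.39. Barx2, the one that fell, was at 8.45, 7.44 and 8.59 in Noggin-deficient tissue, against 15.51 and 15.71 in wild type tissue (log2 change -0.92, limma adjusted p = 7.8e-06). Dlx2, Hand1 and Pax9 reached 0.5 in no wild type library and were tested through the Noggin-deficient libraries alone. With a minimum of 1 in every library 4 genes of the list were tested, of which 3 rose and 1 fell.

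Proximal limb genes did not follow the Hoxc members as a list. Of 26, only 5 had values and 4 were tested, of which 3 rose and 1 fell. The median log2 change of the 4 was 0.57, against 0.65 for the distal list and -0.28 over all tested genes. Tbx5, the forelimb T-box factor, rose by 0.51 and Prrx2, of limb mesenchyme, by 0.62, and Hoxd10 is the remaining gene that rose. Zbtb16, which acts in proximal limb patterning, stood at 0.47, 0.53 and 0.44 in Noggin-deficient tissue, against 2.02 and 2.07 in wild type tissue (log2 change -1.65, limma adjusted p = 3.2e-06). Meis1, Meis2 and Shox2, usual proximal markers, were not analysed here. With so few genes the list does not allow a statement on proximal tissue.

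BMP targets other than the Msx genes mostly rose, with Hand1 and Hand2 shared with the list of MSX partners. Of 10 tested, 9 rose and 1, Gata3, fell (median log2 change 0.51, or 0.77 under median-of-ratios scaling). Across all tested genes 37.9% were called higher and 60.1% lower, with a median of -0.28. Hand1 reached 0.5 in no wild type library and was tested through the Noggin-deficient libraries alone. With a minimum of 1 in every library 8 BMP targets were tested, of which 7 rose and 1 fell. Of 10 tested ligands, receptors and antagonists of the pathway 2 rose and 8 fell (median -0.30, or -0.03 under that scaling, where Bmpr1a, a BMP receptor, turned sign, as it did with the length trend taken out). Nog itself, the gene that is deficient here, was 1 of the 8 (log2 change -1.7). With median-of-ratios and with upper-quartile scaling 3 rose and 4 fell of 11 tested. Bmpr1b, a receptor of limb cartilage, was at -0.64.

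Markers of the tissues that the dissection could hold differed between the groups too. Such differences were the rule, as 98.0% of 3913 tested genes were called by limma, with 37.9% higher and 60.1% lower. Mostly lower calls, as for the cartilage and connective tissue markers below, were thus also found over all tested genes. No marker list was tested against these shares. The labelled tissue was present in both groups. The 13 muscle markers with values summed to between 5130 and 5360 in the Noggin-deficient libraries and between 7340 and 7490 in the wild type libraries. All 13 fell, and Ckm, the muscle creatine kinase, fell by 1.08 on the log2 scale. The median over the 13 was -0.55, against -0.27 with median-of-ratios scaling, and 11 passed as lower with that scaling, as did 11 with the length trend taken out. Myod1, Myog, Myh8, Mylpf and Cacna1s were not analysed here. Of 7 bone markers 5 rose, Alpl, the alkaline phosphatase, by 0.71, and 2 fell, with sums from 4010 to 4020 in the Noggin-deficient and 5170 to 5280 in the wild type libraries. Neither fall passed with the length trend taken out. Of 8 tested cartilage markers 2 rose and 6 fell (sums of 163 to 164 in Noggin-deficient and 184 to 186 in wild type libraries), Col2a1 and Col11a2 turning sign with the length trend taken out, where 3 fell. Of 5 connective tissue and dermis markers 2 rose and 3 fell (sums of 1500 to 1540 in Noggin-deficient and 1850 in wild type libraries), Col14a1 turning sign with the length trend taken out, where 1 rose and 1 fell. Of 14 tested epidermis and hair follicle markers 13 fell and 1, Hoxc13, rose, with sums from 1140 to 1180 in the Noggin-deficient and 2810 to 2850 in the wild type libraries. The 9 tested liver markers rose, with sums from 99.3 to 99.7 in the Noggin-deficient and 1.44 to 1.68 in the wild type libraries, where Fgb, Fga, Serpina1a and Ahsg were each listed at 0 in at least 1 library. Alb, at 0.39 and 0.37 in wild type tissue, entered the test through the Noggin-deficient libraries alone. No liver marker was tested with a minimum of 1 in every library, so their count rests on the filter. The 3 erythroid markers rose, with sums from 145 to 155 in the Noggin-deficient and 56.1 to 61.4 in the wild type libraries. Of 11 tested neuron and Schwann cell markers 8 rose and 3 fell, with sums from 54.1 to 54.6 in the Noggin-deficient and of 46.2 in the wild type libraries, Sox10 turning sign under median-of-ratios scaling. With a minimum of 1 in every library, 2 of these rose and 3 fell. The part of these tissues in the values of the 7 genes was not tested.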

How the data were processed

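Samples were assigned to 3 Noggin-deficient and 2 wild type by their genotype entry. Libraries were stranded mRNA libraries (KAPA) with 11 PCR cycles, read on an Illumina HiSeq, per the labels' protocols. STAR 2.4.2a, DESeq2 and the build mm9 are listed without a role, per the submitters' processing notes. The deposited signal, 1 value per gene and sample, was normalized by the authors in a unit not given in the sources used here. Depth is unknown, so no counting interval or floor is given.

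A gene was tested if 2 or more libraries reached 0.5 (3913 of 4743 genes), on log2(value + 0.25), by limma 3.58.1 with an intensity trend (R 4.3.3). P-values were adjusted by Benjamini-Hochberg over all tested genes. Alternatives were the pseudocount, the filter, median-of-ratios and upper-quartile scaling, removal of a loess trend on GENCODE M21 transcript length (lengths for 94.1% of genes), a replicate block, limma's treat and leaving out each library.

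The 7 genes and all lists were chosen with earlier results of these data known. Named were the 7 genes, every gene with values of the Hox, Hox-flanking, MSX, distal and proximal lists, from the other lists the 2 tested genes with the largest absolute change, and the genes nearest in pattern. Not every such gene is printed, and some items are not reported here. Nog, Msx1os, Hoxa11os, Gata3 and the genes given as turning sign in the marker and BMP lists were added after their values were seen. Pairing of the samples by their numbers is not given by the labels.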

Additional observations from a re-analysis of the deposited data

How the results depend on the processing

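None of the 7 genes changed sign under any alternative that kept it: the log2 change ranged from 1.16 to 2.26 for Msx1, 0.88 to 1.49 for Msx2, 0.96 to 2.28 for Hoxa13, 1.27 to 2.45 for Hoxd13, -0.61 to -0.13 for Hoxc6, -0.52 to -0.18 for Hoxc8 and -0.60 to -0.23 for Hoxc9. A minimum of 1 in every library left only Hoxc6 and Hoxc8 of them. The gap between the distal and Hoxc medians, 2.24, was 2.73 with a pseudocount of 0.05 and 1.42 with one of 1, where low values are shrunk more, and 2.13 to 2.23 without single libraries. The 3836 calls (38.7% higher) became 2764 with median-of-ratios scaling (54.5% higher), 3096 with upper-quartile scaling (48.4% higher) and 2663 with the length trend taken out (48.8% higher); the cause was not tested. Lnp turned from lower to 0.02 with median-of-ratios scaling, and Ptch1 to 0.05 with the length trend taken out. Leaving out a library gave 3458 to 3767.

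Against a 1.5-fold change 569 of 3913 genes (14.5%) passed, a stricter test by construction. Of the lists, 3 of 18 other Hox genes, 0 of 3 Hox-flanking and 5 of 8 MSX partners passed. So did 5 of 13 distal, 1 of 4 proximal and 2 of 10 BMP response genes. Of 10 BMP ligands, receptors and antagonists 1 passed, which was Nog itself. Of the marker lists, 5 of 13 muscle, 0 of 7 bone, 0 of 8 cartilage and 1 of 5 connective tissue genes passed. The others were 8 of 14 epidermis, 1 of 3 erythroid, 9 of 9 liver and 6 of 11 neuron genes. With a minimum of 1 in every library fewer genes were tested, and the calls were 11 for other Hox (7 higher, 4 lower), 4 for MSX partners (3 higher, 1 lower), 8 for distal (6 higher, 2 lower), 5 for neuron (2 higher, 3 lower, against 8 and 3) and 0 for liver genes, of which none was tested. After removal of the length trend 5 cartilage and 2 connective tissue genes were called. With the number in the sample titles as a replicate block, 3772 genes were called; same-numbered deviations correlated at -0.11 over libraries 1 and 2, which does not settle whether the numbers pair the samples. The unknown depth limits the low genes most, Hoxc9 to Hoxc12, and the wild type values of Hoxa13 and Hoxd13 among them.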

Other observations

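Of 3174 other genes with a mean of at least 1, those nearest in pattern over the 5 samples to the mean of the 4 distal genes, by the root mean square difference of log2 values taken minus the wild type mean, were Stmn2, a neuronal microtubule regulator (0.097), Cxcl13, a B cell chemokine (0.113), and Adam11 (0.158). Stmn2 stood at 4.21, 4.14 and 3.79 in Noggin-deficient tissue, against 0.98 and 0.99 in wild type tissue. Cxcl13 stood at 6.98, 6.90 and 6.69 in Noggin-deficient tissue, against 2.09 and 2.12 in wild type tissue. Nearest to the 3 Hoxc genes were Ppp1r13l (0.019), Zbtb43 (0.020) and Des, of the muscle intermediate filament desmin (0.020). Des stood at 194.67, 200.73 and 191.18 in Noggin-deficient tissue, against 265.52 and 259.74 in wild type tissue. With 5 samples in 2 groups this likeness reflects little more than the size of the change.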
